A study of Danio rerio with 1324 samples.

Results

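Heat-shock genes were followed gene by gene through single beta-cells of zebrafish at different ages, in different cohorts and on different diets. The 10 genes, of the 31916 in the deposited tables, were the HSP70 genes hsp70.1, hsp70.2, hsp70.3 and hsp70l, their constitutive relative hspa8, the co-chaperones dnajb1b and bag3, the HSP90 gene hsp90aa1.2, the ubiquitin gene ubb and the zinc-finger gene zfand2a. They were picked by name and gene identifier, and the list was drawn up with the difference between the diets in view, since several of these genes stand at the head of the study's own comparison of the diets. That difference is therefore given below as values without a test. All 10 identifiers were found in every table.

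Each sequenced sample was 1 beta-cell, sorted by its fluorescence from islets of several fish carrying the transgene Tg(ins:BB1.0L), in which the insulin promoter drives the reporter, so the fish behind a pool cannot be told apart. The pools with deposited read counts came from fish of 1 month post fertilization (mpf, the Juvenile stage of the study), of 3, 4 and 6 mpf (Adolescent) and of 10, 12 and 14 mpf (Adult). Further pools came from normally fed fish of 45 days post fertilization (dpf), of 9 mpf, of 13 mpf (Adult), from a new batch of 4 mpf (Adolescent) and from 3 mpf cells captured on a C1 microfluidic chip. In the last pair, siblings of 1 clutch were split at 3 mpf and given Artemia until 4 mpf, by feeding 3 times a day or by intermittent feeding on alternate days, and the amount eaten was not controlled. All other fish had normal feeding, and every pool carried the same transgene.

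When proteins unfold, the transcription factor HSF1 is released from chaperones and switches on a shared set of genes. Their products are HSP70 proteins, which bind exposed hydrophobic stretches, HSP40 partners that deliver clients to them, HSP90, nucleotide exchange factors such as BAG3, and ubiquitin, which tags proteins for the proteasome. Beta-cells make large amounts of insulin and so fold protein at a high rate, but the same genes also respond to handling, warmth and the dissociation of tissue, as do the immediate-early genes.

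The pools held 13 cells (C1 chip) and more, with a median of 274026 (4 mpf) to 1162067 (C1 chip) reads per cell. At 1 mpf the median cell showed reads of 4722 genes, and in the other pools of 2038 to 3654. Beta-cell markers (ins, pdx1, mnx1 and ucn3l) summed to a median of 546610 to 779129 TPM (transcript counts per gene length, scaled to the same total in each cell) per cell in all pools, while the matched acinar markers had a median of 0. Cells rich in alpha or delta hormone (over 10000 TPM) made up 0% to 27.8% of a pool, with the highest share at 6 mpf. A table of 30 cells deposited as a new batch of 1 mpf proved to hold second runs of 30 of the 87 cells of 1 mpf. Each column correlated with 1 cell of the first table at r = 0.971 to 0.997, where the next best cell reached at most 0.576, and the counts of the runs agreed within sampling noise (chi-square per gene 0.961 to 1.05, against at least 32.8 between different cells). These cells were counted once, which left 984 distinct cells in 14 pools and 1 pool for the Juvenile stage. A level below is the mean over the cells of a pool of log2(TPM + 1). TPM are divided by gene length, so levels can be set side by side between genes as far as reads go to the right gene. For the HSP70 genes and ubb that is uncertain, as said below.

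The HSP70 genes encode the chaperones that stress induces most strongly. Of the 4, hsp70l had the highest level in 11 of the 14 pools and hsp70.1 the lowest in 12. The level of hsp70l was 10.10 in the Juvenile pool, 9.61, 6.51, 10.24 and 10.74 in the Adolescent pools (3 mpf, 4 mpf, new batch of 4 mpf and 6 mpf), and 10.24, 10.21, 10.93 and 7.40 in the Adult pools (10, 12, 13 and 14 mpf). The gene was thus high and nearly even in most pools, with 4 and 14 mpf standing below the other staged pools. Outside the stages it was low at 9 mpf (5.92) and on feeding 3 times a day (6.12), and lowest at 45 dpf (4.51). The median cell held 1462 TPM of hsp70l at 1 mpf, 196 TPM at 4 mpf, 2104 TPM at 6 mpf and 309 TPM at 14 mpf.

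For hsp70.1 the level was 8.74 in the Juvenile pool, 7.18, 3.53, 7.55 and 7.62 in the Adolescent pools and 7.28, 7.39, 8.69 and 5.03 in the Adult pools, in the same order. Its levels again set 4 and 14 mpf apart from the other staged pools, and the low pools outside the stages were 9 mpf (3.71), feeding 3 times a day (3.81) and 45 dpf (4.89). The level of hsp70.2 ran between 3.85 (feeding 3 times a day) and 9.62 (13 mpf), and that of hsp70.3 between 4.00 (feeding 3 times a day) and 10.76 (C1 chip). In RefSeq's zebrafish annotation (GRCz12tu) hsp70.1, hsp70.2 and hsp70.3 are neighbours in a row, and HSP70 genes are near copies of each other in sequence, so the split of reads among them is uncertain.

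In contrast to the inducible genes, hspa8 encodes the HSP70 that cells hold at all times. It varied least of the chaperone genes, between 6.91 (feeding 3 times a day) and 10.50 (1 mpf), and 979 of the 984 cells had a read of it. The level was 8.03, 9.25, 9.52 and 8.21 in the Adolescent pools and 9.88, 8.70, 9.75 and 8.001 in the Adult pools, so the stages overlapped. It was the most abundant member in 6 pools (1 mpf, 45 dpf, 4 mpf, feeding 3 times a day, 9 mpf and 14 mpf), and hsp70l was in the other 8. The level of hsp70l minus that of hspa8 ran between -5.42 at 45 dpf and 2.54 at 6 mpf, so the constitutive and the inducible gene changed places between pools.

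The HSP40 gene dnajb1b, whose product stimulates HSP70, had a level of 8.95 in the Juvenile pool, 7.01, 5.40, 8.40 and 6.60 in the Adolescent pools and 4.15, 6.50, 8.24 and 5.26 in the Adult pools. Its low values therefore stood at 10 and 14 mpf among the Adult pools, although 13 mpf was near the Juvenile pool. The level of hsp90aa1.2, whose HSP90 product completes the folding of kinases and receptors, was 9.31 at 1 mpf, 5.70 to 7.83 in the Adolescent pools and 5.45 to 8.08 in the Adult pools, with 10.16 on the C1 chip.

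The remaining members were less abundant. For bag3, the nucleotide exchange factor that links HSP70 to autophagy, the level was 5.16 at 1 mpf, 2.17 to 3.79 in the Adolescent pools, 1.69 to 4.14 in the Adult pools and 1.17 at 45 dpf, and 53.2% of all cells had a read. The level of ubb, which encodes a chain of ubiquitin units, was 7.89 at 1 mpf, 6.26 to 7.08 in the Adolescent pools and 4.61 to 7.24 in the Adult pools. Ubiquitin coding sequence is repeated in the genome, so the assignment of its reads is uncertain. The rarest was zfand2a, whose AN1-type zinc-finger protein acts at the proteasome in mammals and is induced there by arsenite. It was the lowest member in 13 pools, and 27.8% of all cells had a read. The table of names gives its identifier (ENSDARG00000103511) the symbol ZFAND2B, so the name is the one used for the list and the paralog cannot be told from the files.

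**Figure D1:**
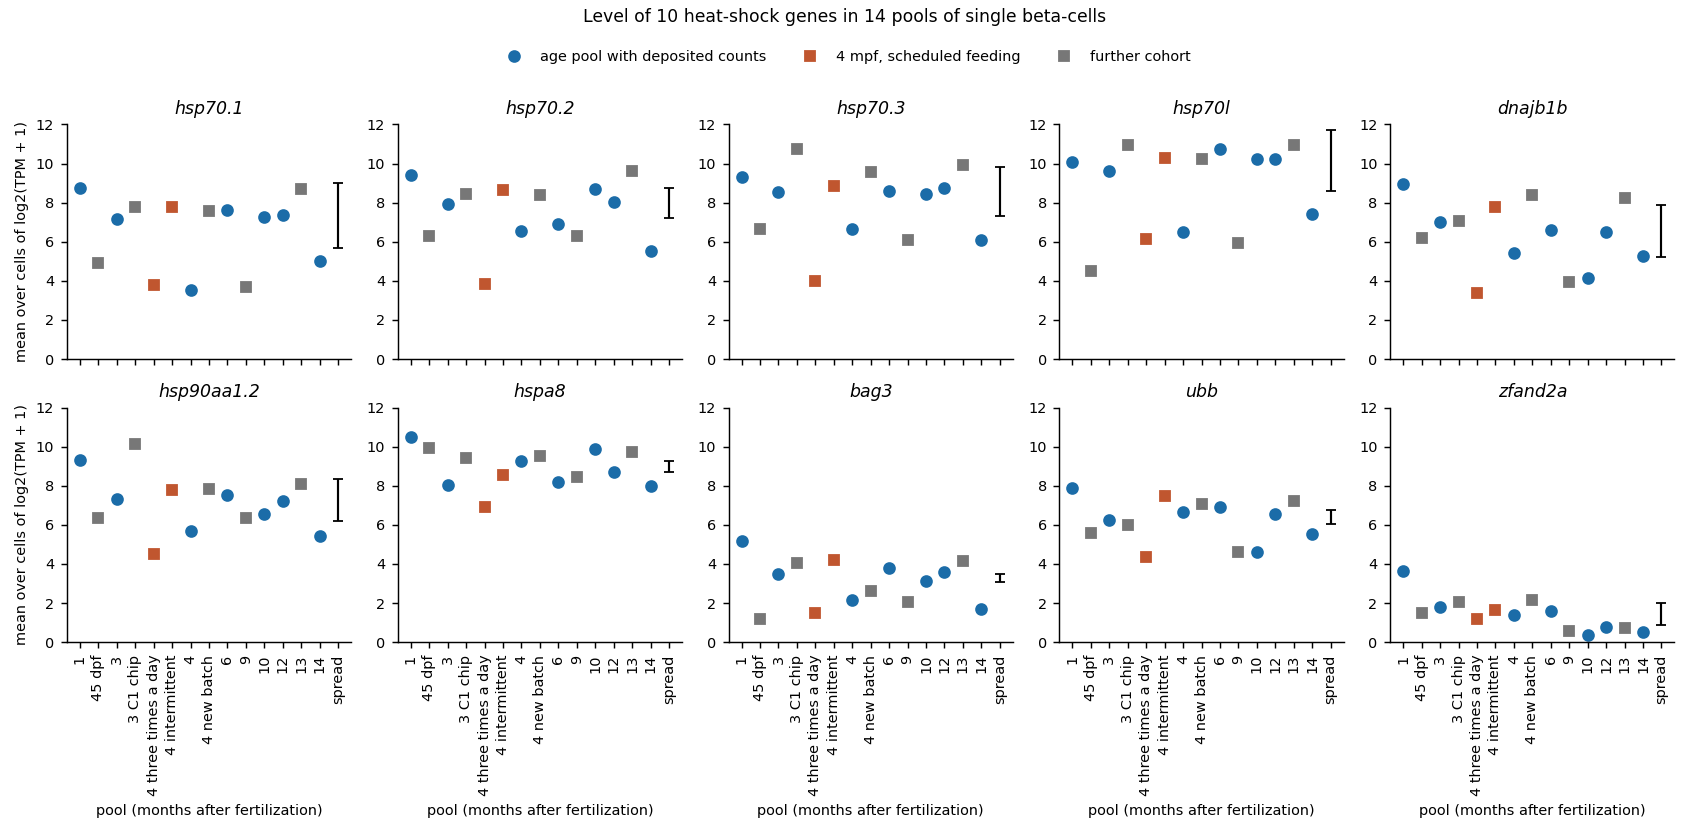
Level of each heat-shock gene (mean over the cells of a pool of log2(TPM + 1), y axis) in the 14 pools (x axis, months after fertilization). Circles are the ages with deposited counts, orange squares the pools on scheduled feeding and grey squares the further cohorts, and the black bar shows 1 SD between pools of the same age above and below the median of the pools. For hsp70.1 the bar is wide (1.67), and 4 mpf, 9 mpf and feeding 3 times a day lie at 3.53, 3.71 and 3.81, while zfand2a lies below 0.8 in every pool from 9 mpf onward.

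Ordered by level, the members largely placed the same pools at the ends. Of the 10, 6 had their highest level at 1 mpf (hsp70.1, dnajb1b, hspa8, bag3, ubb and zfand2a) and 6 had their lowest on feeding 3 times a day (hsp70.2, hsp70.3, dnajb1b, hsp90aa1.2, hspa8 and ubb). Among the lowest 5 pools of a member, 9 mpf and 14 mpf stood for all 10 members, feeding 3 times a day for 9, and 45 dpf and 4 mpf for 7 each. The mean level of the 10 members was lowest on feeding 3 times a day (3.96) and at 9 mpf (4.79), and highest at 1 mpf (8.30) and 13 mpf (7.73). Because the list was drawn up with the diets in view, the low place of feeding 3 times a day is no independent finding. How many of all genes had the same pools at their ends was not counted, and cells at 1 mpf had the most genes with a read. With reads thinned to an equal number per cell 5 members were highest at 1 mpf, with ins left out 4, and without the C1 chip 7. Fewer cells with a transcript and fewer transcripts per cell both lower such a mean, so shares of cells are given as well.

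How far pools of the same age and feeding differ sets the scale for these orders. The pairs were the new and the first batch of 3 mpf (35 and 74 cells), the new batch and the first pool of 4 mpf (46 and 88 cells) and the new and the first batch of 6 mpf (51 and 39 cells). The SD between pools of the same age was 1.67 for hsp70.1, 1.55 for hsp70l, 1.33 for dnajb1b, 1.25 for hsp70.3 and 1.07 for hsp90aa1.2, but 0.784 for hsp70.2, 0.575 for zfand2a, 0.366 for ubb, 0.286 for hspa8 and 0.197 for bag3. Across the orders of all members, 22 of 130 gaps between neighbouring pools reached this SD. Neighbours in a sorted order are close by construction, so the count only says which steps exceed the spread. The SD over the 7 ages with counts was more than 2 times the same-age SD for 3 members, namely bag3 (5.77 times), hspa8 (3.42 times) and ubb (2.85 times). For hsp70.1, hsp70l and hsp70.3 the ratio was 1.06, 1.05 and 0.954, so pools of the same age differed as much as pools of different ages.

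A single pair made up most of that spread. In the new batch of 4 mpf hsp70.1 had a level of 7.55, against 3.53 in the first pool, a difference of 4.02. The difference was 3.73 for hsp70l, 3.00 for dnajb1b, 2.89 for hsp70.3, 2.13 for hsp90aa1.2 and 1.80 for hsp70.2, while zfand2a (0.74), bag3 (0.46), ubb (0.42) and hspa8 (0.27) differed by less than 1. Hence 6 of 10 members were higher by over 1 in the new batch, where 17.3% of 5421 genes were, and 0 were lower (7.82% of genes). In the 3 mpf pair 1 member, hsp90aa1.2, was higher by over 1 in the new batch (36.2% of 5069 genes were) and 0 were lower (3.31%). In the 6 mpf pair dnajb1b (1.15) and hsp70.3 (1.002) were higher by over 1 in the new batch (5.8% of 5067 genes were) and 0 were lower (11.9%). The largest difference in the 3 and 6 mpf pairs was 1.43. On the log2 of the mean TPM the direction of the 6 mpf pair turned, with 3 members lower by over 1 and 0 higher. On that scale the 3 mpf pair had 0 lower and 1 higher, and the 4 mpf pair 0 lower and 5 higher. With 4 mpf left out of both the SD over ages and the same-age SD, an alternative chosen after seeing the data, the ratio passed 2 for 9 members, and hsp90aa1.2 had 1.64. The same-age SD then rests on 2 pairs.

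**Figure D2:**
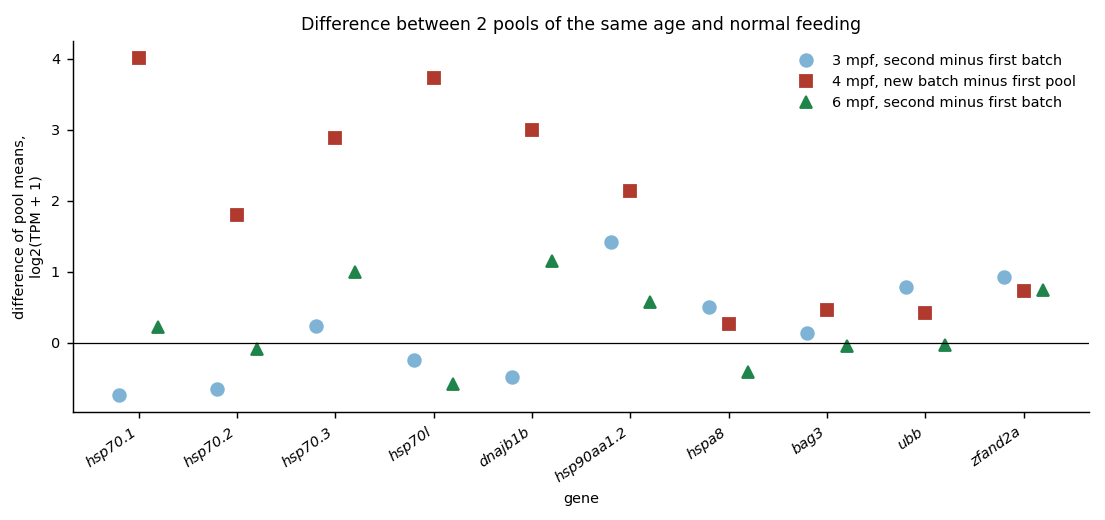
Difference in level between pools of the same age and normal feeding (y axis, log2(TPM + 1)) for each gene (x axis), with a circle for 3 mpf, a square for 4 mpf and a triangle for 6 mpf. The squares of hsp70.1, hsp70l, dnajb1b and hsp70.3 lie at 4.02, 3.73, 3.00 and 2.89, while those of hspa8, bag3 and ubb lie between 0.27 and 0.46.

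To ask whether the genes changed between the stages, edgeR was run on the read counts added up within each age pool, 3 Adult against 3 Adolescent pools. The members split evenly: 5 were higher and 5 lower in Adult pools, and none passed the test. The median log2 fold change was -0.16 over the members and -0.01 over all 14128 genes. Of these genes edgeR called 0 in either direction (0% higher and 0% lower), with 253 higher and 256 lower at an unadjusted p under 0.05, and DESeq2 called 41 higher and 60 lower.

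The HSP70 genes gave log2 fold changes of 0.05 (SE 0.63) for hsp70.1, 0.52 (SE 0.50) for hsp70.2, 0.15 (SE 0.53) for hsp70.3 and 0.04 (SE 0.71) for hsp70l. Each value was close to or below its standard error. The largest values were those of zfand2a (-2.28, SE 0.53, edgeR p = 0.00215, adjusted p = 0.9999), bag3 (-1.16, SE 0.42, edgeR adjusted p = 0.9999) and hsp90aa1.2 (-1.01, SE 0.46, edgeR adjusted p = 0.9999). DESeq2 gave zfand2a the same size of change with an adjusted p of 0.00857, and over the 14 alternatives its adjusted p ran between that and 1, so the call rests on the tool. Without the 4 mpf pool hsp70.1 and hsp70l turned to -0.44 and -0.47. With few pools a stage, a p that misses the threshold does not show that the levels were equal, here or in the trend over age.

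Across the 7 ages, the slope per doubling of age was negative for 9 of 10 members, and none passed the edgeR test. The slope was -0.85 for zfand2a (SE 0.26, edgeR p = 0.00903, adjusted p = 0.971) and -0.48 for hsp90aa1.2 (SE 0.17, edgeR p = 0.0182, adjusted p = 0.9998). It was 0.20 (SE 0.27) for hsp70l, the only positive value. Here edgeR called 0 of 16183 genes in either direction (0% higher and 0% lower), with 278 rising and 409 falling at an unadjusted p under 0.05, while DESeq2 called 326 genes, 219 of them falling, and gave zfand2a an adjusted p of 0.0541, where the 10 alternatives ran up to 1.

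The further pools allowed a comparison of all stages on the level scale with limma, with 1 Juvenile, 4 Adolescent and 4 Adult pools. All 10 members were higher in the Juvenile pool than in the Adolescent mean, and zfand2a was the only one to pass the test. The whole table moved in the same direction: the median difference was 0.95 over 5784 genes and 1.95 over the members. Of all genes 26.3% were called higher and 0.0346% lower in the Juvenile pool, against 1 member higher and 0 lower, so the share of members called, 1 of 10, was not above the background. The Juvenile pool also had the most genes with a read per cell, as given above. Its beta-cell markers, mostly ins, had the lowest median sum (546610 TPM per cell). The other staged pools had 656346 (10 mpf) to 779129 (3 mpf). TPM are scaled to the same total in each cell, so a lower share of ins leaves more for other genes. The part of either in the result was not tested, and the calls with ins left out are given below. As the lone Juvenile pool, 1 mpf was assumed to vary like the other stages.

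Against the Adult pools, again all 10 members were higher in the Juvenile pool, with a median difference of 1.77, where all genes had 1.17. Only zfand2a was called, while 39.2% of all genes were called higher and 0.104% lower. The difference of hsp90aa1.2 was 2.48 (SE 0.94, limma adjusted p = 0.0509) and that of dnajb1b 2.91 (SE 1.28, limma adjusted p = 0.0786). Leaving out the 13 mpf pool brought dnajb1b (3.65, limma adjusted p = 0.026), hsp90aa1.2 (2.90, limma adjusted p = 0.0294), bag3 (2.36, limma adjusted p = 0.0469) and ubb (2.32, limma adjusted p = 0.0422) past the threshold. Leaving out the first 4 mpf pool did so for hsp90aa1.2 (2.48, limma adjusted p = 0.0353). Over the 16 alternatives limma's adjusted p ran between 0.0126 and 0.342 for dnajb1b, 0.00603 and 0.164 for hsp90aa1.2, 0.0153 and 0.358 for bag3, and 0.0171 and 0.329 for ubb, so these calls turned on which pools entered. Between Adult and Adolescent pools limma called 0 genes of 5784 (0% higher and 0% lower), with 755 at an unadjusted p under 0.05, 654 of them lower.

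The level of zfand2a was 3.65 in the Juvenile pool, 1.80, 1.41, 2.14 and 1.57 in the Adolescent pools and 0.38, 0.76, 0.71 and 0.52 in the Adult pools. The stages fell in order without overlap for this member and for no other, 1 of 10, beside 3.58% of 5784 genes (0% rose in order). The difference between Juvenile and Adolescent pools was 1.92 (SE 0.41, limma adjusted p = 0.00885) and that between Juvenile and Adult pools 3.06 (SE 0.41, limma adjusted p = 0.00092). The difference between Adult and Adolescent pools was -1.14 (SE 0.26, limma p = 0.000693, adjusted p = 0.308).

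On the log2 of the mean TPM the Juvenile differences of zfand2a were 1.02 (limma adjusted p = 0.519) and 2.92 (limma adjusted p = 0.0522), so both calls were lost on that scale. Across the 16 alternatives of each comparison, the adjusted p ran between 0.000241 and 0.519 against Adolescent and between 1.23e-05 and 0.0522 against Adult pools. Second runs of the same cells differed in zfand2a by an SD of 0.47 per run and cell, against 0.04 for hsp70l, so single cells gave this gene with the least precision.

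With all pools in view, the 5 pools of 9 mpf and older (0.38 to 0.76) lay below the 9 pools of 6 mpf and younger (1.19 to 3.65) for zfand2a and for no other member. This split by age was set after its values were seen, and 9 of 6239 genes (0.144%) showed it. In cells thinned to 100000 reads, 8.89% to 13.5% of the cells had a read of zfand2a in the older pools and 14.7% (feeding 3 times a day, 5 of 34 cells) to 63.2% (1 mpf, 55 of 87 cells) in the younger ones. Unthinned, the share at 50 TPM or more was 28.7% of 87 cells at 1 mpf (exact 95% interval 19.5 to 39.4%), 13.6% of 88 cells at 4 mpf (7.25 to 22.6%) and 1.67% of 60 cells at 14 mpf (0.0422 to 8.94%).

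Counted as cells at 50 TPM or more, the members differed most in how far the share could drop. For hspa8 the share was 88.6% (feeding 3 times a day) to 100%, so nearly every cell held it in every pool. The share of dnajb1b ran between 31.4% of 35 cells on feeding 3 times a day (16.9 to 49.3%) and 92% of 87 cells at 1 mpf (84.1 to 96.7%). The share of hsp70.1 was lowest at 4 mpf, with 23.9% of 88 cells (15.4 to 34.1%), that of ubb at 9 mpf, with 24.4% of 86 cells (15.8 to 34.9%), and that of bag3 at 45 dpf, with 8.11% of 74 cells (3.03 to 16.8%). These low shares lie in different pools for different members. Cells with a read of all 10 members made up 62.1% of the cells at 1 mpf and 1.67% (14 mpf) to 27.5% (3 mpf) elsewhere, where cells also had fewer genes with a read.

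**Figure D3:**
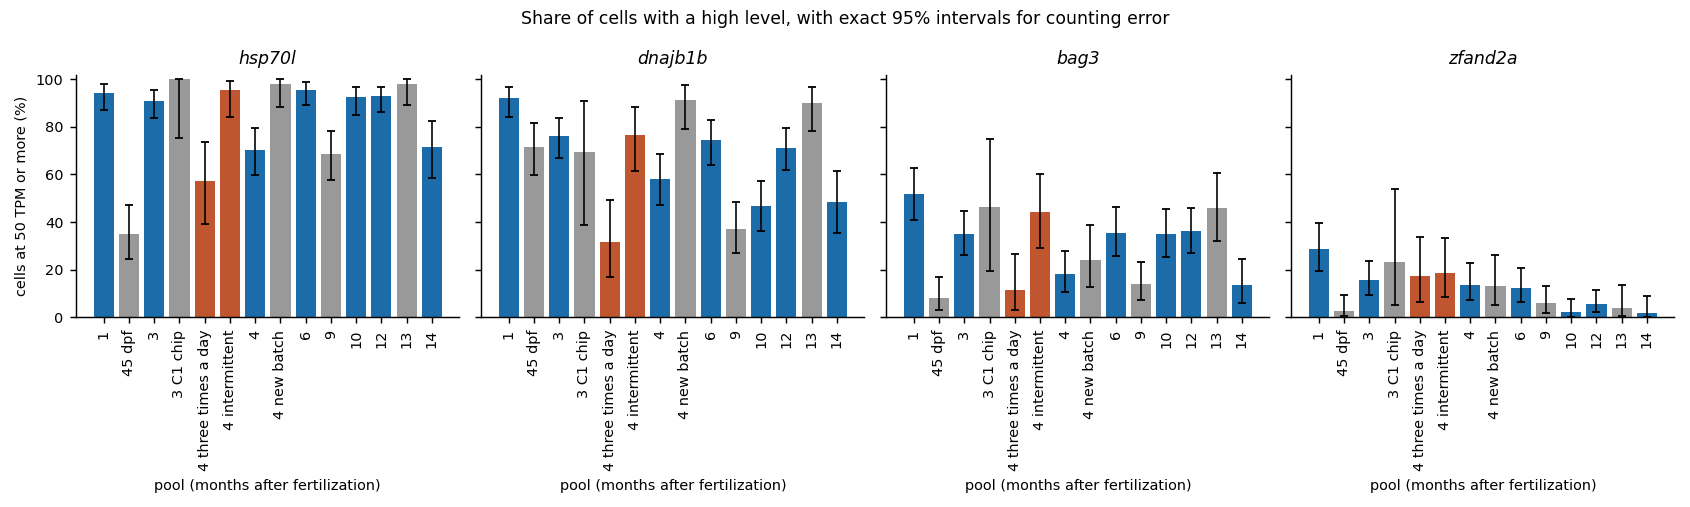
Share of cells at 50 TPM or more (y axis, %) in each pool (x axis, months after fertilization) for 4 of the genes, with exact 95% intervals that cover counting error only. Blue bars are ages with counts, orange bars scheduled feeding and grey bars further cohorts. The share of zfand2a is 28.7% at 1 mpf and 1.67% to 5.81% from 9 mpf onward, while that of hsp70l stays above 90% in 9 of the pools and falls to 35.1% at 45 dpf.

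Since pools were collected on different dates, differences were also read between pools that the study places on the same date. Within the date of 12 and 1 mpf, 8 of 10 members were lower by over 1 at 12 mpf, where 51.3% of 6654 genes were, and 0 were higher (1.89% of genes). The gene zfand2a had a level of 0.76 at 12 mpf, against 3.65 at 1 mpf, and dnajb1b 6.50 against 8.95, while hsp70l stood at 10.21 against 10.10. For 13 mpf and the second runs of 1 mpf, which are said to share a plate, only 2 members were lower by over 1, zfand2a (0.71 against 3.74) and hsp90aa1.2 (8.08 against 9.33), where 62.9% of 6726 genes were, and 0 were higher by over 1 (0.862% of genes). There hsp70l was 0.72 higher and hsp70.3 0.41 higher at 13 mpf. These second runs are of cells that also stand in the 1 mpf pool set against 12 mpf, so the comparisons are not independent. Whether the cells shared a date with 12 mpf or a plate with 13 mpf cannot be told from the data.

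For the date shared by 14 mpf and a batch of 3 mpf, the labels do not name the batch, so both are given. At 14 mpf, 7 members were lower by over 1 than in the first batch, where 4.72% of 3811 genes were, and 9 than in the new batch, where 31.4% of 5148 genes were. None was higher by over 1 (7.92% and 3.67% of genes). The gene hsp70.1 had a level of 5.03 at 14 mpf, against 7.42 and 6.68 in these batches, and hspa8 8.001 against 7.87 and 8.37. Between 12 mpf and the same batches, 0 and 2 members were lower by over 1, where 1.47% of 4141 and 22.6% of 5310 genes were, and 0 were higher (12% and 6.1%). The low levels at 14 mpf were thus not seen at 12 mpf against the same batches.

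On the date of 10 mpf and a batch of 6 mpf, the members went apart. The gene ubb had a level of 4.61 at 10 mpf, against 6.92 and 6.89 in the batches of 6 mpf, and dnajb1b 4.15 against 5.95 and 7.10. By contrast, hsp70.2 had 8.71 against 6.95 and 6.86, and hspa8 9.88 against 8.43 and 8.03. Of the 10 members 2 and 4 were lower by over 1 (17.9% of 5086 and 14% of 4899 genes), and 2 were higher in both cases (12.8% and 16%). A batch of 6 mpf also shared a date with the first pool of 4 mpf. The labels name the 6 mpf batch for neither date, so both batches are given each time and only 1 of them shares the date. In the batches of 6 mpf hsp70.1 had 7.49 and 7.72, against 3.53 at 4 mpf, and hsp70l 11.07 and 10.49, against 6.51. Higher by over 1 were 5 and 6 members (10.3% of 5031 and 7.21% of 4899 genes), and 0 and 1, hspa8, were lower (9.8% and 14.3% of genes).

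The age between Juvenile and Adolescent, 45 dpf, had no stage in the study. There 9 of 10 members were lower by over 1 than at 1 mpf, where 32.6% of 6691 genes were, and 0 were higher (1.57% of genes). The level of hsp70l was 4.51 at 45 dpf, against 10.10 at 1 mpf, and that of bag3 1.17 against 5.16, whereas hspa8 had 9.93 against 10.50. Against 45 dpf, 3 mpf held more of 5 members by over 1 (2.81% of 5082 genes), the HSP70 genes and bag3, and less of 1, hspa8 (27.8% of genes). In this pool hsp70l was lower relative to hspa8 than in any of the others. There 12 of 74 cells had none of the 4 inducible HSP70 genes at 50 TPM or more, against 4 of 87 at 1 mpf. The immediate-early genes, 11 of a list of 14 matched, summed to a median of 162.3 TPM per cell at 45 dpf and 1476 TPM at 1 mpf, and their part in the difference was not tested.

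The C1 chip pool had 4 members higher by over 1 than 3 mpf (13.5% of 4503 genes), led by hsp90aa1.2 (10.16 against 7.32), and 0 lower (32.4%), but the capture platform and the cohort cannot be told apart there. Nor do 10 and 9 mpf share a date. At 10 mpf 6 members were higher by over 1 than at 9 mpf (20.1% of 4499 genes), led by hsp70l (10.24 against 5.92), and 0 lower (7.65%), while ubb had 4.61 in both pools.

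Between the diets, the cells of fish fed 3 times a day held less of all 10 members than those of fish fed intermittently. This is the contrast the list was drawn up on, with 1 pool of fish per diet (35 and 43 cells), and it carries no test. The level of hsp70.3 was 4.00 on feeding 3 times a day, against 8.83 on intermittent feeding, that of hsp70.2 3.85 against 8.62, that of dnajb1b 3.39 against 7.78, that of hsp70l 6.12 against 10.29 and that of hsp70.1 3.81 against 7.80. The differences were -3.25 for hsp90aa1.2, -3.14 for ubb, -2.72 for bag3, -1.64 for hspa8 and -0.44 for zfand2a. Lower by over 1 were 9 of 10 members, where 6.74% of 4008 genes were, and 0 were higher (7.36% of genes). Nearest the threshold of the count stood hspa8 (-1.64) inside it and zfand2a (-0.44) outside it.

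Mean TPM, which weigh cells with many transcripts more, gave differences of -1.06 (zfand2a) to -2.47 (hsp70.3) on the log2 scale. They were smaller than those of the levels for the other members, although hspa8 had nearly the same (-1.62), and larger for zfand2a. The cells were spread widely. On feeding 3 times a day 14 of 35 cells had no read of hsp70.3 and 7 had none of hsp70l, against 1 and 0 of 43 cells on intermittent feeding, while the highest cell held 9988 TPM of hsp70l, against 19856 TPM. Of the 35 cells 14 (40%) had no inducible HSP70 gene at 50 TPM or more, against 1 of 43. Median reads per cell were 363387 and 359708, so the depths were close. The immediate-early genes summed to a median of 137.5 TPM per cell on feeding 3 times a day and 670 TPM on intermittent feeding, and their part in the difference was not tested. Cells rich in other hormones numbered 1 in each pool, and 9 members were lower by over 1 without them too.

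The normally fed pools of 4 mpf differed from each other, so the diets cannot be placed against a single reference. The mean level of the 10 members was 3.96 on feeding 3 times a day and 7.30 on intermittent feeding, against 5.39 in the first normal pool and 7.33 in the new batch. Against the first pool, feeding 3 times a day left 6 members lower by over 1 (22.5% of 4537 genes were) and 0 higher (3.35%), but hsp70.1 had 3.81 against 3.53 and hsp70l 6.12 against 6.51. On the log2 of the mean TPM only 2 were lower by over 1, hspa8 (-1.61) and ubb (-1.06), and 2 were higher, hsp70.1 (1.24) and hsp70l (1.36). Against the new batch, 9 members were lower by over 1 (31.6% of 5235 genes were) and 0 were higher (4.36%), and on the log2 of the mean TPM 6 were lower and 0 higher. On intermittent feeding 7 members were higher by over 1 than in the first pool (4.44% of 4483 genes were, and 25.2% were lower), with hsp70.1 at 7.80 against 3.53, and 1, bag3 at 4.20 against 2.63, than in the new batch (4.17% of 5200 genes were, and 34.8% were lower). Against the new batch 5 members were higher and 5 lower on intermittent feeding, with a median difference of -0.0020. The normal pools differed by less than the diets for 8 members, and by more for hsp70.1 (4.02 against -3.99) and zfand2a (0.74 against -0.44).

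**Figure D4:**
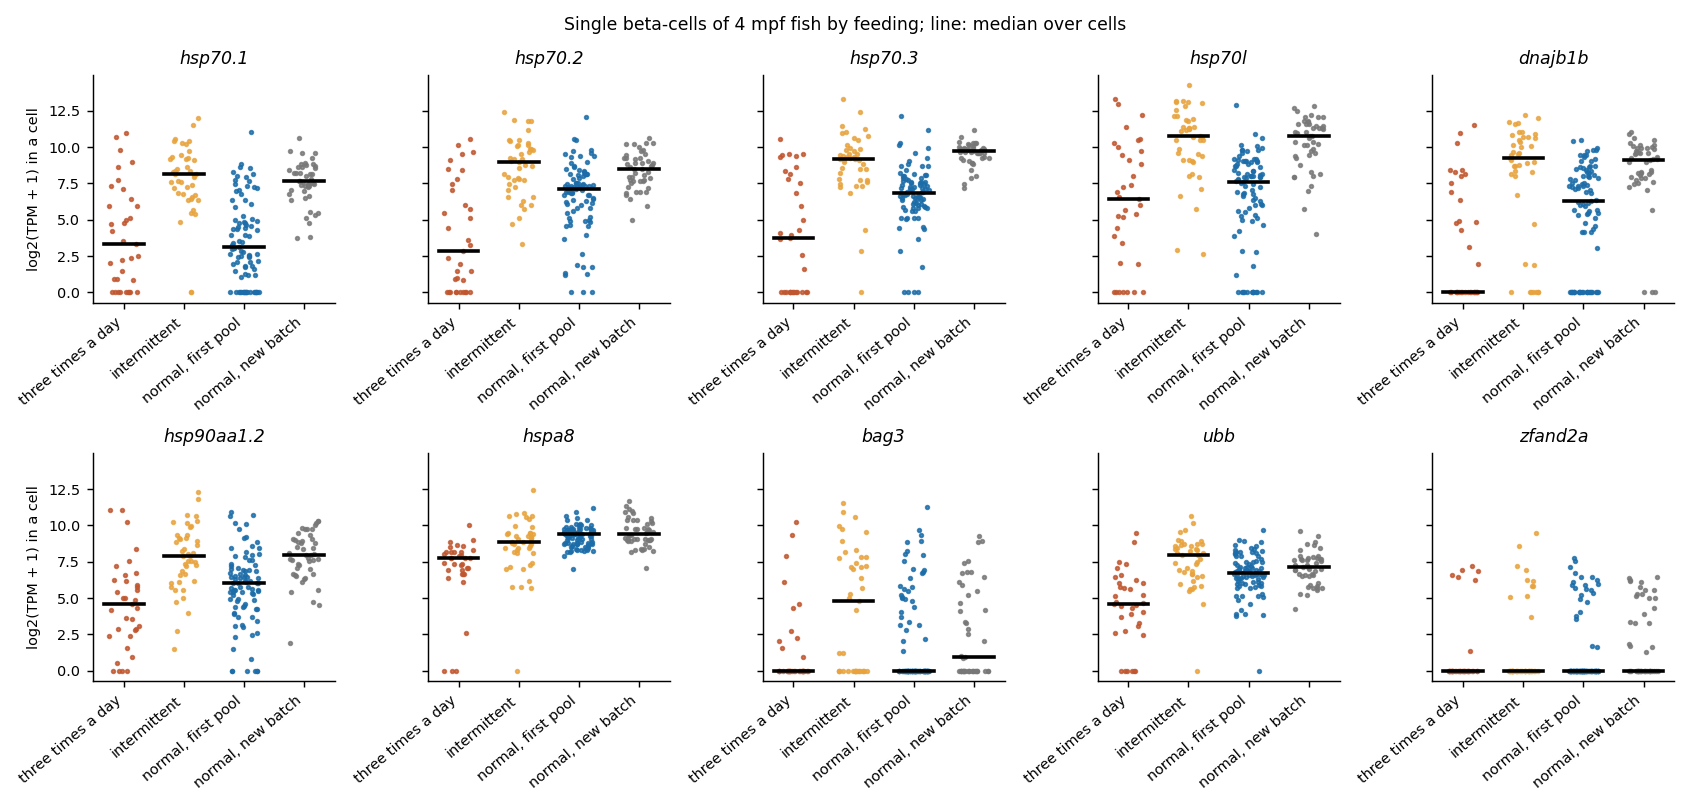
Single cells of 4 mpf fish (points) on feeding 3 times a day, on intermittent feeding and in both normally fed pools, with log2(TPM + 1) of each gene on the y axis and a line at the median over cells. On feeding 3 times a day 8 of 35 cells hold 1000 TPM or more of hsp70l and 7 have no read of it. On intermittent feeding these are 27 and 0 of 43 cells, in the first normal pool 5 and 12 of 88, and in the new batch 30 and 0 of 46. The median cell fed 3 times a day has 0 TPM of dnajb1b, against 605 TPM on intermittent feeding. The first normal pool lies near feeding 3 times a day for hsp70.1 and near the other pools for hspa8.

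Within a pool, cells that held much of 1 inducible gene held much of the others. Spearman's rho over the cells of a pool was averaged over the 14 pools for each of the 45 pairs, as a description: the cells of a pool share fish, plate and date. The highest mean was 0.76 for hsp70.2 with hsp70.3, followed by 0.73 for hsp70.1 with hsp70.2. The split of reads among these neighbouring genes is uncertain, as given above, and its part in these values was not tested. Among 7 members (the inducible HSP70 genes, dnajb1b, hsp90aa1.2 and ubb) the 21 pairs had means of 0.496 to 0.761, and 20 of the 45 pairs passed 0.5. The other 3 had lower values: bag3 reached at most 0.37 (with hsp90aa1.2), hspa8 at most 0.31 (with ubb) and zfand2a at most 0.16 (with ubb). Of 1577 genes outside the list with a read in at least 20% of the cells of every pool, 0 exceeded this best value for bag3. For zfand2a 1 did, and for hspa8 11 did. Only 53.2% and 27.8% of all cells had a read of bag3 and zfand2a, and the part of the zeros in their low rho was not tested. For 26 pairs rho was above 0 in all pools.

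The coupling differed in strength between pools. The median rho of the 45 pairs was 0.57 at 1 mpf (87 cells) and 0.56 at 6 mpf (90 cells), but 0.28 at 9 mpf (86 cells) and 0.29 at 10 mpf (92 cells). Over the pairs of the inducible HSP70 genes, dnajb1b and hsp90aa1.2 the median was 0.68, 0.72, 0.42 and 0.47 at 1, 6, 9 and 10 mpf. At 14 mpf (60 cells) it was 0.65, against 0.31 over the 45 pairs, so the order of the pools depends on the members taken. The highest single value was 0.93, for hsp70.2 with hsp70.3 on feeding 3 times a day (35 cells). Mean rho with the reads per cell lay between -0.05 and 0.09 for every member. In single pools, however, that rho ran between -0.37 (hsp70.2) and 0.55 (ubb). After thinning to 100000 reads 19 pairs passed 0.5. For hspa8 the mean rho with ins was -0.48, where the other members had -0.24 to -0.09, and ins takes up most of the TPM of a cell.

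**Figure D5:**
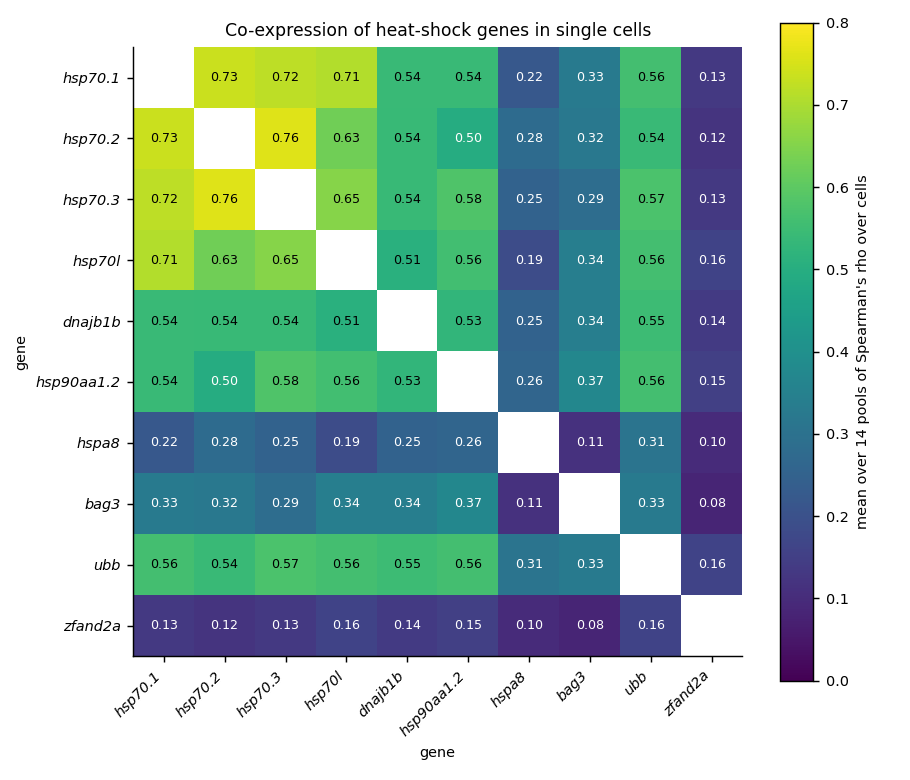
Mean over 14 pools of Spearman's rho across the cells of a pool for each pair of heat-shock genes, with the value in each field and the colour scale from 0 to 0.8. The upper left block of inducible HSP70 genes, among which the split of reads is uncertain, holds 0.63 to 0.76. The rows of hspa8, bag3 and zfand2a stay at or below 0.37.

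Outside the list, the genes most like the members were searched among 1577 genes with a read in at least 20% of the cells of every pool. For 8 of the 10 members ppp1r15a, which encodes a regulator of translation under stress and is also on the immediate-early list, was among the closest 3, with a mean rho of 0.55 for ubb and 0.51 for hsp90aa1.2. The closest gene to hsp90aa1.2 was its neighbour hsp90aa1.1 (0.75), another HSP90 gene of similar sequence, and the closest to dnajb1b was si:ch73-341p18.7 (ENSDARG00000075855) with 0.84, which RefSeq places next to it under the name adgre10. Reads of such neighbours may not be told apart, and the part of this in both values was not tested. For hspa8 the closest were slc25a5 (0.43), an exchanger of ADP and ATP in mitochondria, hsp90ab1 (0.42), the constitutive HSP90, and the elongation factor eef1a1l1 (0.42), none of which was among the closest 3 of another member. For zfand2a the values were weak, with pdcd4b (0.15) and ppp1r15a (0.15) among its closest 3.

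Over the 14 pool means, which differ in age, diet and cohort, the order of the pools was most alike for hsp70.3 and hsp90aa1.2 (Spearman's rho 0.96) and least alike for hsp70l and hspa8 (0.19). Of the 45 pairs 34 passed 0.5. Pools share dates and the transgene, and the values are given as a description.

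Of 48 further chaperone and co-chaperone genes 38 were matched by symbol, and 33 to 35 of them were tested. Between Adult and Adolescent pools none was called by edgeR or limma, and none in the trend over age, with a median log2 fold change in edgeR of 0.19 for Adult over Adolescent. The most abundant of them was hsp90ab1 (mean level 8.85). Higher in the Juvenile pool were 15 of 33 against Adolescent pools (median difference 1.71) and 19 of 33 against Adult pools (median 1.87), with 0 lower, beside 26.3% and 39.2% of all genes. The largest of these differences against Adolescent pools were those of hspd1 (4.82), the mitochondrial HSP60, hspa5 (4.14), the HSP70 of the endoplasmic reticulum, ahsa1b (3.41), an activator of HSP90, and hspa9 (3.32), the mitochondrial HSP70. Against Adult pools they were hspa5 (3.61), hspd1 (3.43), ahsa1b (3.14) and fkbp4 (2.76), an HSP90 co-chaperone. Of the 37 genes with a read in some pool, 24 had their highest level at 1 mpf. Cells of that pool had the most genes with a read and the lowest median sum of beta-cell markers. The share of all genes highest there was not counted.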

How the data were processed

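Each deposited column was 1 beta-cell. Reads were trimmed with Trim Galore, aligned to GRCz10 with HISAT2 and counted per gene with HTSeq by the authors, whose versions are not given in the sources used here. The authors deposited raw read counts for 637 cells of 7 ages and TPM (counts divided by gene length and scaled to the same total per cell) for 1014 columns of the 1324 labelled cells. The labels name the kit SMART-Seq v4. No column lacked a sample.

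The members and lists were chosen with earlier results of these data known. Named were the 10 members, of the other chaperones those past a threshold (at most 4 by size, otherwise the 3 most abundant) and for each member its 3 most alike genes, of which some are not reported here. Gene symbols came from the table of names and the symbols in the study's tables. For the repeated 1 mpf cells the stage fit used 1 Juvenile pool in place of the 2 first planned. Gene lengths for 22948 genes were worked back from cells with both counts and TPM, and with them the reads of the other cells, whole within 0.02 reads.

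Pools of fish were the replicates, and p-values measure only the spread between them. Counts added within pools were tested with edgeR 4.0.16 (quasi-likelihood, TMM, filterByExpr), and pool means of log2(TPM + 1) with limma 3.58.1 (genes with a mean of at least 1 in 2 pools), in R 4.3.3. Both used Benjamini-Hochberg adjustment over all genes and a threshold of 0.05. On simulated data with planted changes of 3 on the log2 scale, edgeR missed most of the changed genes, while limma found most of them. The share of false calls exceeded the threshold for edgeR in the trend and, by little, for limma in both comparisons with Adult pools. The simulation gave the lone Juvenile pool the spread of the other stages, and smaller changes were not simulated. A lack of calls by edgeR or limma therefore does not show equal levels. DESeq2 1.42.0, other filters, pseudocount 0.1, the log2 of the mean TPM, ins left out, thinning to 100000 reads, batches apart and each pool left out were the alternatives. Alternatives chosen after seeing the data were both runs as pools, the mean of both runs, the 4 mpf pair left out, 4 mpf left out of both SDs, collection date as a block, the C1 pool left out of the levels, hormone-rich cells left out, and both scale changes for the collection dates. Differences between single pools carry no test, and a difference by over 1 is on the log2(TPM + 1) scale, which understates the change of low genes. Exact Clopper-Pearson 95% intervals cover counting error only. Python 3.11.15 with numpy 2.4.6, scipy 1.17.1, pandas 2.3.3 and matplotlib 3.10.9 did the rest.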

Additional observations from a re-analysis of the deposited data

Results flagged for a closer look

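The level of hsp70.1 in the first 4 mpf pool was 3.53, far below the other Adolescent pools, which stood at 7.18 (3 mpf), 7.55 (new batch of 4 mpf) and 7.62 (6 mpf). The gap to the nearest pool was 0.893 of the whole range of the group. It was the 1 set to stand out of 20 sets examined (each member in the Adolescent and the Adult pools), and chance alone gives about 1 in 20.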

How the results depend on the processing

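No paired analysis was possible because the numbers in the labels name single cells of a pool and pair nothing across pools. Collection dates can be a block, but the batch of 3 or 6 mpf behind a date is not named. Under the 4 possible assignments, chosen after seeing the data, edgeR called 0 genes in 3 and 1 lower in 1, and no member. The values of hsp70.1 were then -0.40, -0.20, -0.40 and -0.19, those of hsp70.3 -0.30, -0.25, -0.29 and -0.24, and those of hsp70l -0.49, -0.023, -0.52 and -0.0094. Between Adult and Adolescent pools DESeq2 called 41 genes higher and 60 lower, where edgeR called 0, and in the trend over age 326, while edgeR without a filter called 9 in the trend, and leaving out a pool gave 0 to 1. Of Juvenile against Adolescent pools, 1521 genes were called, and 3977 without a filter, 15 on the log2 of the mean TPM, 878 with ins left out, 4013 with both runs as pools and 758 to 1796 with a pool left out. Of Juvenile against Adult pools, 2275 genes were called, and 4966, 47, 1327, 4855 and 1614 to 2364 under the same changes, and 1071 with the C1 chip added. Adult against Adolescent pools gave 0 to 1 in limma with a pool left out. The same-age ratio passed 2 for 3 members, for 8 with the 4 mpf pair left out of the same-age SD alone, and for 9 with 4 mpf left out of both SDs. Between 12 and 1 mpf 8 members were lower by over 1, and 5 with ins left out.

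Some directions turned, all for members that passed no test. Between Adult and Adolescent pools, with batches apart, edgeR gave -0.071 for hsp70.1 and -0.18 for hsp70l, and with a pool left out -0.44 to 0.45 for hsp70.1, -0.25 to 0.55 for hsp70.3 and -0.47 to 0.52 for hsp70l. In the trend a pool left out gave -0.19 to 0.044 for hsp70.2, -0.13 to 0.052 for hsp70.3 and -0.26 to 0.13 for hspa8. In limma hsp70l ran over -0.10 to 1.32 against Adolescent and -0.36 to 0.82 against Adult pools with a pool left out, and its Juvenile minus Adult difference was -0.12 on the log2 of the mean TPM and -0.23 with ins left out. For Adult minus Adolescent, hsp70.3 was 0.36 and bag3 -0.73 on the log2 of the mean TPM, and bag3 -0.081 with the C1 chip and -0.092 with batches apart. With a pool left out these ran over -0.35 to 1.31 (hsp70.1), -0.013 to 1.35 (hsp70.2), -0.60 to 0.69 (hsp70.3), -0.50 to 1.18 (hsp70l), -0.73 to 0.19 (hsp90aa1.2) and -0.21 to 0.60 (bag3). The cause was not tested.

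Of the alternative counts 79 stayed within 1.5 times and 21 did not. Of the tested values of single members 666 kept their direction and side of the threshold. Another 46 turned direction, 16 gained a call and 2 lost one. The 79 include counts of 0 that stayed 0, as in most alternatives of edgeR and of Adult against Adolescent pools in limma. They therefore do not measure how stable the counts of called genes were. With both runs as pools, hsp70.2, hsp90aa1.2, hspa8 and bag3 passed the threshold against Adolescent and dnajb1b, hsp90aa1.2, hspa8, bag3 and ubb against Adult pools, but runs of the same cells are no replicates. Without the new batch of 4 mpf hspa8 passed against Adolescent pools (limma adjusted p = 0.0496, between 0.0148 and 0.356 over its alternatives).

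Limits are the 1 Juvenile pool, 1 pool per diet, and fish that cannot be told apart within a pool. Age, cohort and collection date cannot be told apart where no pair of pools shares a date. Genes with few reads per cell, zfand2a and bag3, are limited by depth.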
